A study of Homo sapiens with 2 samples.

Results

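Replication-dependent histone genes encode the linker histone H1 and the core histones H2A, H2B, H3 and H4 that package newly copied DNA. They were chosen by symbol (H1-1 to H1-6 and the H2AC, H2BC, H3C and H4C families), keeping probes annotated to 1 gene, which gave 57 of the 18417 genes measured. They fell into 6 linker, 14 H2A, 16 H2B, 8 H3 and 13 H4 genes, and each was read by 1 probe set. HepG2 is a human hepatoma (liver cancer) cell line. RNA of HepG2 cells exposed for 24 h to 100 mg/L of amorphous silica nanoparticles in MEM medium (SiO2-NP) was hybridised to 1 Affymetrix array, and RNA of control HepG2 cells (Control) to another. The labels do not describe what the control cells received, or the particle size.

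In dividing cells these genes are switched on at the start of S phase from histone locus bodies, where the coactivator NPAT gathers, and their mRNA ends in a stem-loop bound by SLBP instead of a poly(A) tail. The mRNA is degraded when DNA synthesis stops, so its amount depends in part on the share of cells that are copying DNA. The labelling kit primes along the whole transcript and does not need a poly(A) tail. The genes lie in clusters on chromosomes 6 and 1, and many copies of a class encode the same or nearly the same protein.

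The arrays were compared by log2 intensity, and every difference is SiO2-NP minus Control on the log2 scale. A single array per group leaves no error between replicates and allows no test, and the words higher and lower describe these 2 arrays and not the conditions. A gene was counted as above the level filter when its mean over both arrays reached the median of all genes, a log2 intensity of 7.26, which held for 29 histone genes and for 9209 genes in all. Across those 9209 genes the difference had a median of -0.03 and an SD of 0.16. The hepatocyte markers were present, with all 9 measured above the filter, against 1 of 10 fibroblast, 0 of 9 leukocyte and 0 of 10 endothelial markers.

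Histone genes were mostly slightly lower on the SiO2-NP array. Of the 29 above the filter, 24 (82.8%) lay below Control and 5 above it, where the shares of all genes above the filter were 59.8% and 40.2%. Their median difference was -0.17, against -0.03 for all genes above the filter. The differences were small: 0 of the 29 were at least 1.5-fold lower and 0 at least 1.5-fold higher, where the shares of all genes were 0.25% and 0.141%. At a milder threshold of 1.2-fold, chosen after the data were seen, 8 histone genes were lower, a count to be read against 7.53% of all genes, and 0 were higher, against 2.99%. In RNA of a whole culture, fewer cells that hold histone mRNA and less of it per cell cannot be told apart.

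**Figure D1:**
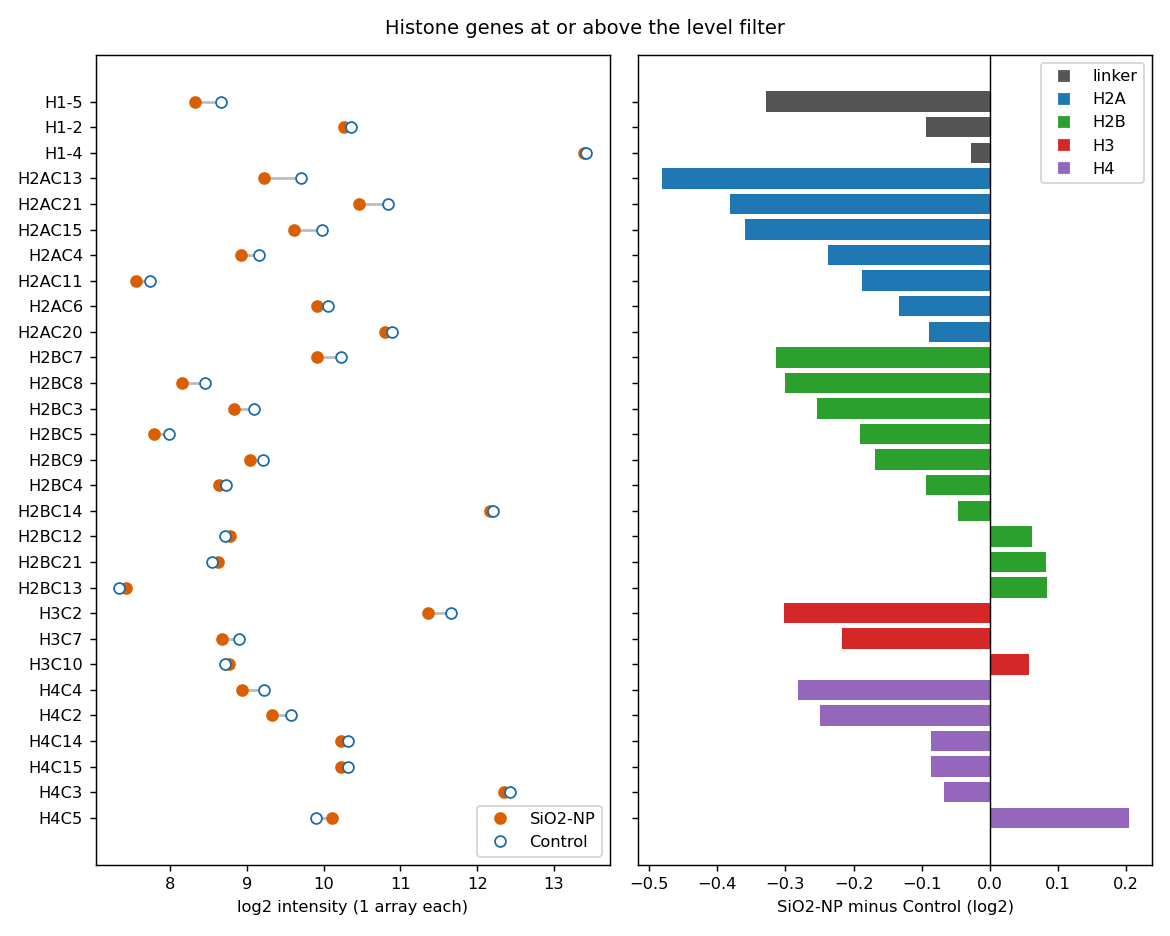
Left, log2 intensity of the 29 histone genes above the level filter on the SiO2-NP array (filled) and the Control array (open). Right, the difference, SiO2-NP minus Control, coloured by class. Of the 29 bars, 24 point below 0. The longest is H2AC13 at -0.48, and H4C5 at 0.20 is the highest. Each point is 1 array, so there are no error bars.

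The promoters of these genes differ by class in the short sequences they carry, and 52 of the 57 genes had a RefSeq promoter (GRCh38.p14), of which the 250 bases before the transcription start were searched on both strands. CCAAT was found in all 6 linker, 13 H2A, 16 H2B and 6 H3 promoters and in 3 of 11 H4 promoters, against 34.5% of 15843 protein-coding genes. TATAAA stood in 34 of the 52, against 9.23%. The octamer ATTTGCAT, known from H2B promoters as a site of the factor POU2F1, was in 13 of 16 H2B and 10 of 13 H2A promoters and in none of the others, against 1.65%. AAACACA, known as the H1 box, was in 6 of 6 linker promoters and in 0 of the core histone promoters, against 3.69%. GGTCCG, part of the H4 element bound by HINFP, was in 10 of 11 H4 promoters, against 12.2%. It was also in 1 of 13 H2A, 1 of 16 H2B and 1 of 6 H3 promoters. The 10 H4 promoters include those of H4C14 and H4C15, whose windows are identical. None of these motifs contains another, but H2A and H2B genes that start back to back share much of their window, so both then read the same letters. A match is a description of the sequence and not a bound site.

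Below are stretches that end at the base before the start of genes described in the following paragraphs. They are shown to set the letters of lower members beside those of H2BC12, H4C5 and H2BC26, which lay above Control. H2BC12 turned to -0.01 with a shared probe averaged in, and H2BC26 lay below the level filter. The motifs just named are in capitals, and each strand is read 5′ to 3′.
H1-5, chr6:27867589-27867708, minus strand: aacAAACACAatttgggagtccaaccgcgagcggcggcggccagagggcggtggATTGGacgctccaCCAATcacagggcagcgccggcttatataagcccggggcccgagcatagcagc
H2AC13, chr6:27808023-27808172, plus strand: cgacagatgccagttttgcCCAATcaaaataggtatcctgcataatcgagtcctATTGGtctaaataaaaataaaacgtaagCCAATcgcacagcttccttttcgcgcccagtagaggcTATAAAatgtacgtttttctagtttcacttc
H2BC7, chr6:26199396-26199515, plus strand: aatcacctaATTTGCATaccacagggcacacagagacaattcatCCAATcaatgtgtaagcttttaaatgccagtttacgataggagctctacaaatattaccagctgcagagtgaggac
H2BC12, chr6:27146859-27146978, minus strand: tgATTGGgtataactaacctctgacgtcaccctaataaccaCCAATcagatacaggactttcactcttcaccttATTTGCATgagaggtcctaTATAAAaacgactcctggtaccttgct
H3C2, chr6:26032100-26032219, minus strand: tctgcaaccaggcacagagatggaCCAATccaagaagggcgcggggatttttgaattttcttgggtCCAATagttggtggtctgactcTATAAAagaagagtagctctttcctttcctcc
H4C4, chr6:26189113-26189232, minus strand: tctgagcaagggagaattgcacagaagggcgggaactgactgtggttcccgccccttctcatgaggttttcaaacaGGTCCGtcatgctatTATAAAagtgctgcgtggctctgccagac
H4C5, chr6:26204490-26204609, plus strand: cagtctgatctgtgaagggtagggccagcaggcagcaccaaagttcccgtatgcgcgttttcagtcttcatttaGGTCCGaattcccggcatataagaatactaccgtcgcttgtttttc
H4C14, chr1:149832537-149832656, plus strand: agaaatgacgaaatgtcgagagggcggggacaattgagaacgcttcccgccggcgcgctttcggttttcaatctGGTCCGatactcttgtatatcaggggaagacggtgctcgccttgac
H2BC26, chr1:228457953-228458102, plus strand: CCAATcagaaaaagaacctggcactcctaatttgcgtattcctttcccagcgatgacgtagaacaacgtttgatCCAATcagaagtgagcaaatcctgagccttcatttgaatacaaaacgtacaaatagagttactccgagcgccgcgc

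Linker histones, which bind the DNA between nucleosomes, were represented above the filter by 3 of 6 genes, and all 3 lay below Control as deposited. Counts below Control by class, here and in the next paragraphs, stand beside 59.8% of all genes above the filter. H1-5 had a log2 intensity of 8.33 on the SiO2-NP array and 8.66 on the Control array, a difference of -0.33 or 1.26-fold. The other two differed by far less. H1-2 had 10.26 on the SiO2-NP array and 10.36 on the Control array, and H1-4 had 13.40 on the SiO2-NP array and 13.42 on the Control array. The H1-4 difference of -0.03 turned to 0.05 after quantile normalization of the 2 arrays, so it has no settled direction. The median of the 3 genes was -0.09.

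H2A genes were lower throughout: all 7 above the filter lay below Control, with a median of -0.24 and a range of -0.48 to -0.09. H2AC13 differed most of all histone genes, with 9.22 on the SiO2-NP array and 9.70 on the Control array, 1.40-fold lower. Of all genes above the filter, 0.912% had a lower difference than H2AC13. H2AC21 had 10.46 on the SiO2-NP array and 10.84 on the Control array (-0.38). H2AC15 had 9.62 on the SiO2-NP array and 9.98 on the Control array (-0.36). These 3 genes were the H2A members past 1.2-fold, and H2AC13 and H2AC15 lie in the same block of chromosome 6 while H2AC21 lies on chromosome 1. With shared probes averaged in, H2AC15 moved to -0.09, within 1.2-fold, H2AC13 to -0.30 and H2AC21 to -0.27. H2AC4 had 8.92 on the SiO2-NP array and 9.16 on the Control array. H2AC11 had 7.56 on the SiO2-NP array and 7.75 on the Control array. The remaining H2A genes showed the smallest differences, H2AC6 (9.92 on the SiO2-NP array, 10.05 on the Control array) at -0.13 and H2AC20 (10.80 on the SiO2-NP array, 10.89 on the Control array) at -0.09.

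H2B genes, whose product pairs with H2A in the nucleosome, were mixed, with 7 of 10 below Control, a median of -0.13 and a range of -0.31 to 0.08. H2BC7 had 9.91 on the SiO2-NP array and 10.23 on the Control array (-0.31), and H2BC8 had 8.15 on the SiO2-NP array and 8.45 on the Control array (-0.30). These were the H2B genes past 1.2-fold. H2BC3 had 8.84 on the SiO2-NP array and 9.09 on the Control array (-0.25). H2BC5 had 7.80 on the SiO2-NP array and 7.99 on the Control array (-0.19). H2BC9 had 9.04 on the SiO2-NP array and 9.21 on the Control array (-0.17). Differences then shrank to -0.09 for H2BC4, with 8.64 on the SiO2-NP array and 8.73 on the Control array, and to -0.05 for H2BC14, with 12.16 on the SiO2-NP array and 12.21 on the Control array. The sign of H2BC14 turned under quantile normalization, to 0.01. The 3 H2B genes above Control differed from it by less than 0.1 on the log2 scale. H2BC12 had 8.78 on the SiO2-NP array and 8.72 on the Control array, and its difference of 0.06 turned to -0.01 when a probe shared with other H2B genes was averaged in. H2BC13 had 7.42 on the SiO2-NP array and 7.34 on the Control array. H2BC21 had 8.63 on the SiO2-NP array and 8.55 on the Control array, and its difference shrank to 0.02 when shared probes were averaged in. The octamer and CCAAT stand in the promoters of both H2BC7, which was lower, and H2BC12, which was not, as the printed stretches show. A link between motif and difference was not tested.

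Of the H3 genes, 3 of 8 passed the filter, with a median of -0.22. H3C2 had 11.36 on the SiO2-NP array and 11.66 on the Control array, a difference of -0.30 or 1.23-fold. H3C7 had 8.68 on the SiO2-NP array and 8.90 on the Control array (-0.22). H3C10 went the other way, with 8.77 on the SiO2-NP array and 8.71 on the Control array (0.06), and its value turned to -0.03 when a probe that it shares with H2AC13 was averaged in.

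Of the H4 genes, 6 of 13 passed the filter and 5 of these lay below Control, with a median of -0.09. H4C4 had 8.94 on the SiO2-NP array and 9.22 on the Control array (-0.28), and H4C2 had 9.33 on the SiO2-NP array and 9.58 on the Control array (-0.25). H4C3 had 12.35 on the SiO2-NP array and 12.42 on the Control array (-0.07). H4C14 and H4C15 had the same values, 10.23 on the SiO2-NP array and 10.31 on the Control array. The 250 bases before their starts are identical as well, so they count as 1 measurement. With the pair counted once, 82.1% of 28 histone genes lay below Control and the median was -0.18. H4C5 was the exception of the class and the highest histone gene above the filter, with 10.10 on the SiO2-NP array and 9.90 on the Control array, 1.15-fold higher. It kept its sign under each of the 3 scaling alternatives, with values of 0.20 to 0.25. H4C5 and H4C4 both carry GGTCCG, and in their printed stretches H4C4 holds TATAAA as well and H4C5 does not. H4C14 and H4C15, which lay below Control, hold no TATAAA in their 250 bases either. Only exact letters were searched, so near matches were not counted. Whether these letters bear on the differences was not tested.

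Probes annotated to several symbols were left out of the values above, and they read 12 further genes of these families that no single-symbol probe covered, which accounts for all 69 RefSeq symbols of the families. Of the 20 such probes, 15 were above the filter and gave 12 distinct pairs of values, since some probes held exactly the same values on both arrays. Among these 12, 11 lay below Control and the median was -0.16, close to that of the single-symbol histone genes. Of all single-symbol genes above the filter, 59.8% lay below Control. The probe of H3C4 and H2AC7, had 11.99 on the SiO2-NP array and 12.28 on the Control array (-0.29). The 2 probes of H4C11 and H4C12 differed by -0.29 and -0.27. The 3 distinct probes of H3C13, H3C14 and H3C15 lay between -0.16 and -0.14, and the probe of H2BC18 and H2BP1 above the filter had -0.16. Where a shared probe covered a gene already described, the values did not always match in size or sign. H2AC13 differed by -0.48 by its own probe, while its shared probe with H3C10 gave -0.12. H2AC21 had -0.38 by its own probe, and the probe of H2AC18, H2AC19, H2AC20 and H2AC21 together gave -0.21. The sign differed for H2AC15, with -0.36 by its own probe and 0.18 by the probe it shares with H2BC15, whose level lay just under the filter. It differed as well for H4C14 and H4C15, with -0.09 by their own probes and 0.035 by a shared one, and for H3C10, with 0.06 by its own probe and -0.12 by the one shared with H2AC13. H2BC12 had 0.06 by its own probe and -0.09 by a shared one. H2BC21 had 0.08 by its own probe, -0.01 by a brighter shared probe and -0.02 by a shared probe under the filter. H3C11, under the filter, had 0.14 by its own probe and -0.06 by the dim one shared with H3C6. A shared probe is annotated to several genes, some of them of different classes, and whether the single-symbol probes also cross-hybridise was not tested, so no value here is certain to belong to 1 gene.

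Below the filter lay 28 histone genes, for which a dim signal cannot be told from an absent transcript. They included the 3 genes known mainly from testis, H1-6, H2AC1 and H2BC1. Of the 28, 17 lay below Control and 11 above, where 35.4% of all genes under the filter lay below, with a median of -0.10 and a range of -0.33 (H2AC12) to 0.46 (H2BC26). All genes below the filter had a median of 0.07, and the typical difference changed with level. Set against the running median of 500 genes of like level, 23 of the 28 dim histone genes were below it, with a median of -0.18, and so were 24 of the 29 above the filter (82.8%), with a median of -0.13.

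**Figure D2:**
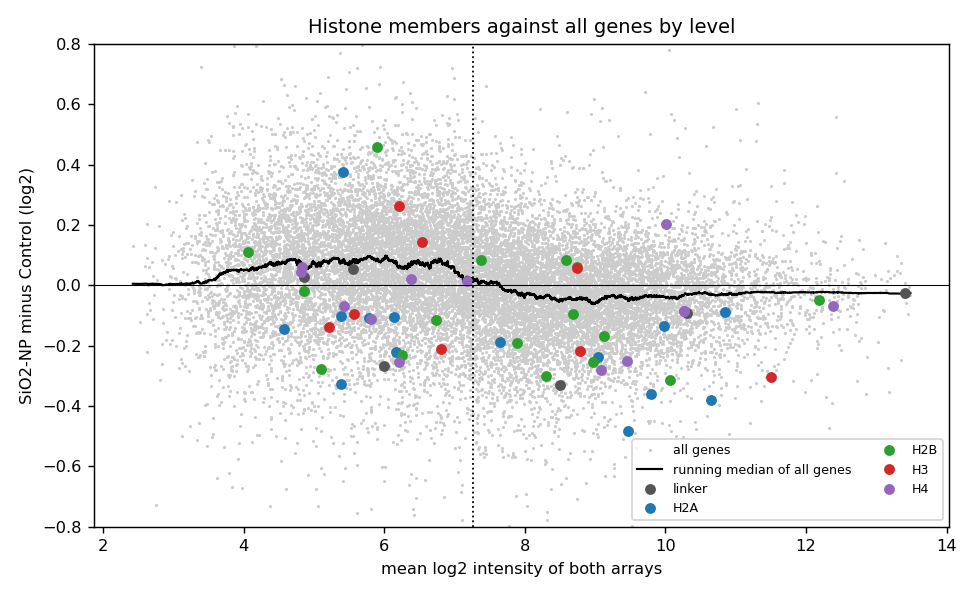
Difference, SiO2-NP minus Control (log2), against the mean log2 intensity of both arrays for all genes (grey; a few lie off the plot) and the 57 histone genes coloured by class, with the running median of all genes (black) and the level filter of 7.26 (dotted). Of the 57 histone genes, 47 lie below the black line.

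The largest positive differences of the families belonged to a pair of dim genes. H2BC26 had 6.12 on the SiO2-NP array and 5.66 on the Control array (0.46), and H2AC25 had 5.60 on the SiO2-NP array and 5.22 on the Control array (0.37). They start 230 bases apart in opposite directions, in a small block of chromosome 1 away from the other members. Their shared window holds CCAAT but neither TATAAA nor ATTTGCAT. The next was H3C1, with 6.35 on the SiO2-NP array and 6.08 on the Control array (0.26). These 3 dim genes were at least 1.2-fold higher, against 13.5% of all genes under the filter, and 3 others were at least 1.2-fold lower, against 5.41%.

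Neighbours that start back to back within 1000 bases, counted among members with a RefSeq promoter, formed 10 pairs. In 6 pairs both genes lay below Control, in 1 pair (H2AC25 and H2BC26) both lay above, and in 3 the partners had opposite signs. Of all genes, 59.8% of those above the filter and 35.4% of those under it lay below Control. The same counts for pairs of other genes were not computed, so the pair counts are a description only. In 4 of the 10 pairs both genes were above the filter, and 2 of those 4 shared a sign, both below Control. Of the 9 pairs of an H2A and an H2B gene, with starts 215 to 248 bases apart, the H2A partner had the lower difference in 7. Most of these 9 pairs hold a dim gene. Both partners were above the filter only for H2AC20 and H2BC21, H2AC6 and H2BC4, and H2AC13 and H2BC13. In each of those the H2A partner was the lower. The widest split was that of H2AC13 (-0.48) and H2BC13 (0.08), whose starts lie 244 bases apart. H2AC6 (-0.13) and H2BC4 (-0.09) lay close together, as did H2AC11 (-0.19) and its dim partner H2BC11 (-0.23). H2BC9 (-0.17) and H3C7 (-0.22) start 979 bases apart, so their windows do not overlap, unlike those of the H2A and H2B pairs. The partners of a pair were read by different probe sets.

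**Figure D3:**
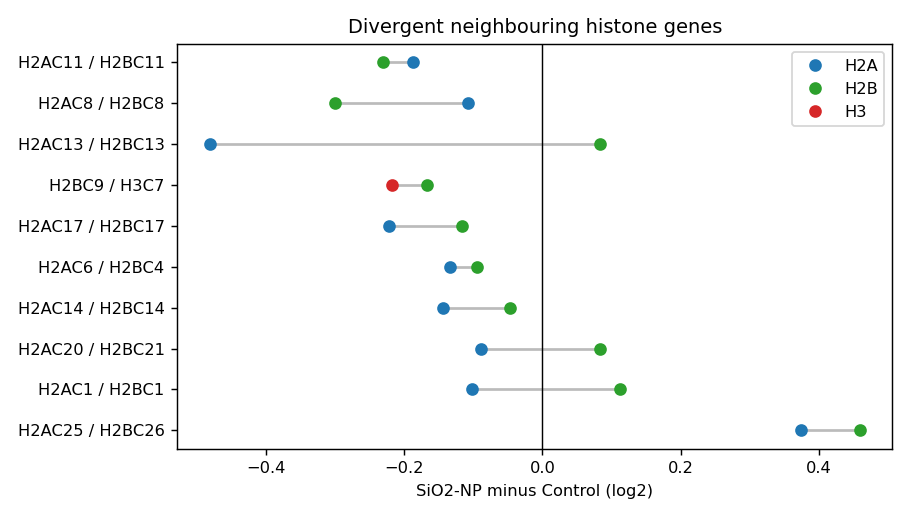
Difference, SiO2-NP minus Control (log2), of the 10 pairs of histone genes that start back to back, 1 row per pair and 1 point per gene, coloured by class. In 7 rows both points fall on the same side of 0. The widest row is H2AC13 and H2BC13, and H2AC25 and H2BC26 are the row with both points above 0.

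The genes were also grouped into blocks along the chromosomes, set by gaps over 500000 bases between members. Beside the counts by block, 59.8% of all genes above the filter lay below Control. In the first block of chromosome 6, 15 of 16 genes above the filter lay below Control, with a median of -0.20, H4C5 being the exception. In the second, 1 of 2 did, with H2AC11 below and H2BC12 above. In the third, 4 of 6 did, with a median of -0.19. In the first block of chromosome 1, 4 of 5 did, with a median of -0.09, and 2 of those 5 are the inseparable H4C14 and H4C15.

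Genes around the histone genes were taken from 5 lists. The lists cover histone gene activation, the stem-loop end of the mRNA, histone chaperones, DNA replication and histone variants. 0 of their members above the filter were past 1.5-fold in either direction, where the shares of all genes were 0.25% lower and 0.141% higher. The counts below Control that follow are to be read against the 59.8% of all genes above the filter that lay below it. Of the genes that switch histone genes on at the start of S phase, 8 of 11 lay below Control, with a median of -0.06. NPAT had 8.70 on the SiO2-NP array and 8.78 on the Control array (-0.08). CASP8AP2, another component of the histone locus body, had 7.95 on the SiO2-NP array and 8.19 on the Control array (-0.24). CCNE2, a cyclin that activates CDK2 at S phase entry, differed by -0.23, the phosphatase CDC25A by -0.12 and the coactivator CREBBP by 0.09.

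Of the genes for forming, translating and degrading the stem-loop end, 18 of 21 lay below Control, with a median of -0.08. SLBP had 9.26 on the SiO2-NP array and 9.38 on the Control array (-0.12). ERI1, an exonuclease that trims the histone stem-loop, had 7.52 on the SiO2-NP array and 7.89 on the Control array (-0.37), the lowest difference of the list. LSM10, a protein of the U7 particle, and CPSF3, the endonuclease that cuts the pre-mRNA, each differed by -0.27, and CSTF2 differed by -0.23.

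Among histone chaperones and assembly factors, 23 of 25 lay below Control, with a median of -0.12. ANP32E, which removes the variant H2A.Z, had 7.79 on the SiO2-NP array and 8.15 on the Control array (-0.36). MMS22L, which acts at stalled forks, differed by -0.34 and the acetyltransferase HAT1 by -0.20. CABIN1, of the replication-independent HIRA complex, went the other way, with 9.21 on the SiO2-NP array and 8.93 on the Control array (0.28).

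Genes for DNA replication and nucleotide supply had a median of -0.17, with 36 of 38 below Control, and the histone genes' median of -0.17 lay beside it. POLD3, a subunit of DNA polymerase delta, had 7.54 on the SiO2-NP array and 8.11 on the Control array (-0.57). RRM2, of ribonucleotide reductase, differed by -0.49, POLE2, of polymerase epsilon, by -0.44, the helicase subunit MCM6 by -0.35 and the sliding clamp PCNA by -0.20.

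Of the listed histone variants, 4 of 11 lay below Control, with a median of 0.01. The histone genes chosen by symbol had 24 of 29 and -0.17. The difference between the variants and the histone genes chosen by symbol was not tested, because each group held 1 array. The variants' median turned to -0.023 with the filter at the 75th percentile. H2AX had 10.14 on both arrays, and its difference turned sign after centring on the median. H2AZ1 had 11.08 on the SiO2-NP array and 11.13 on the Control array (-0.05), and H3-3B, a gene for H3.3, had 10.06 on the SiO2-NP array and 10.14 on the Control array (-0.08). The largest differences were those of germline variants, H2BW2 at 0.23 and H1-7 and H1-8 at 0.18 each, all 3 near the level filter with values of 7.34 to 7.71. They are 3 of the 7 variants above Control, so the count and the median of the variants include them. H3-3A is not analysed here.

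**Figure D4:**
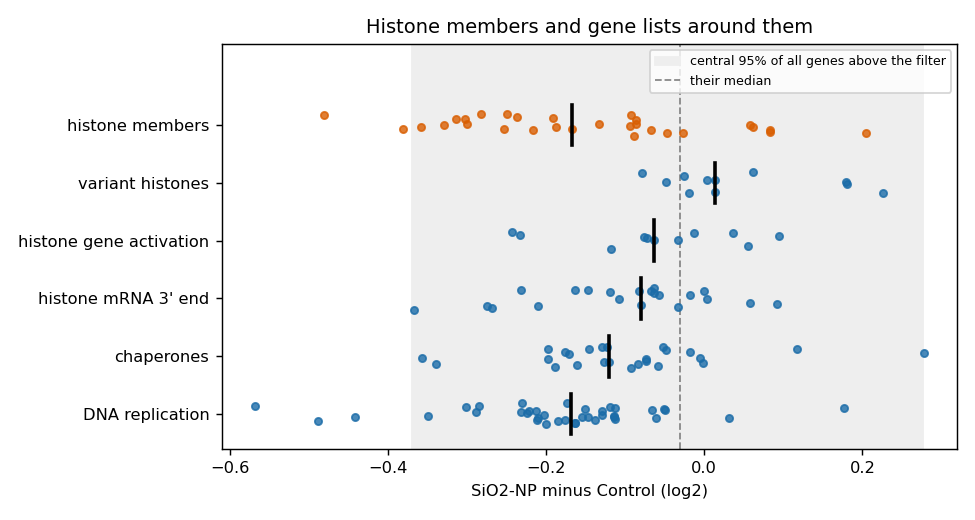
Difference, SiO2-NP minus Control (log2), of genes above the level filter, 1 point per gene and a bar at each median, for the 29 histone genes and 5 lists, with the central 95% of all genes above the filter (grey, -0.37 to 0.28) and their median of -0.03 (dashed). H2AC13 and H2AC21 are the histone genes outside the grey range. The vertical scatter within a row has no meaning.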

How the data were processed

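The authors deposited 1 log2 intensity per probe set and array, for 33297 probe sets. The log2 scale was read from the values, 2.08 to 14.4. Per the submitters' processing notes the tools named are RMA and MAS5. Which made the values, with what settings, is not given in the sources used here. Genes were named through the platform annotation, in which 19460 probe sets had 1 symbol and 1754 several. Identifiers of 19429 were found in RefSeq (GRCh38.p14), which changed 0 symbols. Probe sets of a gene were averaged. Array medians were 6.69 (SiO2-NP) and 6.65 (Control). The number of arrays limits the precision. Detection calls were not used.

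With 1 array per group no test was run. Thresholds were 1.5-fold, 2-fold and, added later, 1.2-fold. Every member was described; of each of the 5 lists around them the 4 genes with the largest absolute difference above the filter were named, plus SLBP, NPAT, CASP8AP2, H2AZ1, H2AX, H3-3A, H3-3B and PCNA; 1 further gene of that rule is not reported here. Members and lists were chosen with earlier results of these data known. Steps were tested on simulated data with planted 2-fold changes and a spread smaller than that of the real data. That run does not cover differences as small as those described here. The work used matplotlib 3.10.9, pandas 2.3.3, NumPy 2.4.6 and Python 3.11.15.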

Additional observations from a re-analysis of the deposited data

Results flagged for a closer look

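Probes annotated to several genes stand outside the main values, and 3 distinct ones that include a histone gene had more signal on the SiO2-NP array than on the Control array. The probe of H2BC15 and H2AC15 had 7.35 on the SiO2-NP array and 7.17 on the Control array, a difference of 0.18, where the probe of H2AC15 alone gave -0.36. The mean of the shared probe, 7.26, lay just under the level filter. The probe of H4C14 and H4C15 had 7.40 on the SiO2-NP array and 7.36 on the Control array (0.035), where their single-symbol probes gave -0.09. The probe of H2BC18 and FCGR1BP differed by 0.031, with 5.49 on the SiO2-NP array and 5.46 on the Control array, well under the filter.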

How the results depend on the processing

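The median of the histone genes stayed below 0 under all 12 alternatives run, between -0.19 (75th percentile level filter) and -0.10 (no filter), and the medians of the 5 classes did so under the 11 run for each. The share below Control was 95% of 20 genes with the 75th percentile filter, and 75.9% after quantile normalization. The matching shares of all genes were not computed under these settings. The 59.8% given above belongs to the main setting and is no base for them. Counts past 1.5-fold were 0 under each alternative scaling, filter and probe rule and at 2-fold. At 1.2-fold, an alternative chosen after seeing the data, 8 histone genes were lower, to be read against 7.53% of all genes above the filter. The variants' median turned to -0.023 with the 75th percentile filter, where 6 genes remained above it, and the DNA replication median was -0.13 after quantile normalization. The median of all genes above the filter rose as well, from -0.03 to 0.01 under quantile normalization. The 75.9% share above comes from that same scaling. The cause of these moves was not tested. Assigning shared probes to each of their symbols moved H2AC15 most, to -0.09, H2AC13 to -0.30 and H2AC21 to -0.27, and turned H2BC12 to -0.01 and H3C10 to -0.03. Each member had 1 probe, so averaging, the brightest probe and the probe as the unit gave the same values. The genes known mainly from testis lay under the filter, so leaving them out changed nothing. These alternatives are counted among the 12 and the 11 but could not test the histone medians. Pseudocounts were not needed on log2 values. No paired analysis was possible because the design has 1 array a group, and no replicate could be left out.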
